A study of Mus musculus with 8 samples.

Results

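The 39 HOX genes listed among the 22520 genes of the table were followed in cells taken by beads against the endothelial surface protein PECAM-1 from mice with and without endothelial LRP1. Members were every row whose gene symbol is Hox, a cluster letter from a to d and a number, which gave 11 genes of HoxA, 10 of HoxB, 9 of HoxC and 9 of HoxD. Values are FPKM, a read level scaled to transcript length and library size, so levels can be compared between genes per length. A gene was tested when it reached 1 FPKM in at least 4 of the 8 libraries. Of the 39 HOX genes 16 did so, among 11389 tested genes in all, and the other 23 are given by their levels.

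HOX genes encode homeodomain transcription factors that tell cells where along the head-to-tail axis they lie. They sit side by side in clusters in the order in which they are used, low numbers at the 3′ end for anterior and early use and high numbers at the 5′ end for posterior and late use. Connective tissue and vessel cells keep part of this positional code after birth, Polycomb proteins hold the unused genes silent, Trithorax proteins keep used genes active, and retinoic acid and CDX factors set the code in the embryo.

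LRP1, the low-density lipoprotein receptor-related protein 1, is a large endocytic receptor. Libraries 1 to 4 labelled LRP1 KO came from C57BL/6 mice at postnatal day 14, and libraries 1 to 4 labelled Wildtype (WT) from mice of the same strain and age. By the study's methods the knockout mice were LRP1 f/f; Cdh5-CreER+/-, in which an inducible Cre under the promoter of the endothelial cadherin gene Cdh5 removes Lrp1, and WT were littermates with the same floxed alleles and no Cre (LRP1 f/f; Cdh5-CreER-/-). The labels call every library a mix of heart, liver and lung cells, whereas the study describes liver cells and heart-and-lung cells separately, so the organ behind a given library is not known here, and a difference of organ between libraries cannot be told apart from the differences below. Nothing states that the 4 libraries of a group came from separate animals, so the p-values measure only the spread between these libraries.

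Lrp1 checked the labels. The 4 WT libraries gave 113, 140, 103 and 124 FPKM in order, against 3.45, 5.20, 2.79 and 7.72 in LRP1 KO libraries 1 to 4, so that the KO mean was 3.99% of the WT mean (log2 difference -4.45, SE 0.23, adjusted p = 8.89e-05). Endothelial markers were present at a modest level in WT, with Pecam1 at 7.89 ± 0.812 FPKM (SD, n = 4), below Hoxa5, and Cdh5 at 9.59 ± 1.09. Mesothelial and fibroblast genes were far higher in the same libraries, for example Msln at 1177 ± 85.6 FPKM in WT, so the endothelial label is not carried by the most abundant transcripts and the cells are called here by their selection alone. The summed level of 20 endothelial markers, none of them at 0, ran from 188 to 206 in WT and was 699, 427, 508 and 193 in LRP1 KO libraries 1 to 4, so that LRP1 KO library 4 alone among the KO libraries stood at the WT level. In bulk RNA fewer cells of a type and less RNA per cell cannot be told apart. Which of these cell types lost Lrp1 was not tested.

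Most of the HOX signal came from HoxA and HoxB. The 39 genes summed to 53.5 ± 2.26 FPKM in WT (SD, n = 4), of which HoxA gave 51.5%, HoxB 36.0%, HoxC 6.34% and HoxD 6.09%. By mean level 16 genes reached 1 FPKM in at least one group, 7 more lay between 0.1 and 1, 13 were under 0.1, and 3 (Hoxc12, Hoxd1 and Hoxd12) were listed at 0 in all 8 libraries. The depth of the libraries is unknown, so no limit can be put on a listed 0.

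**Figure D1:**
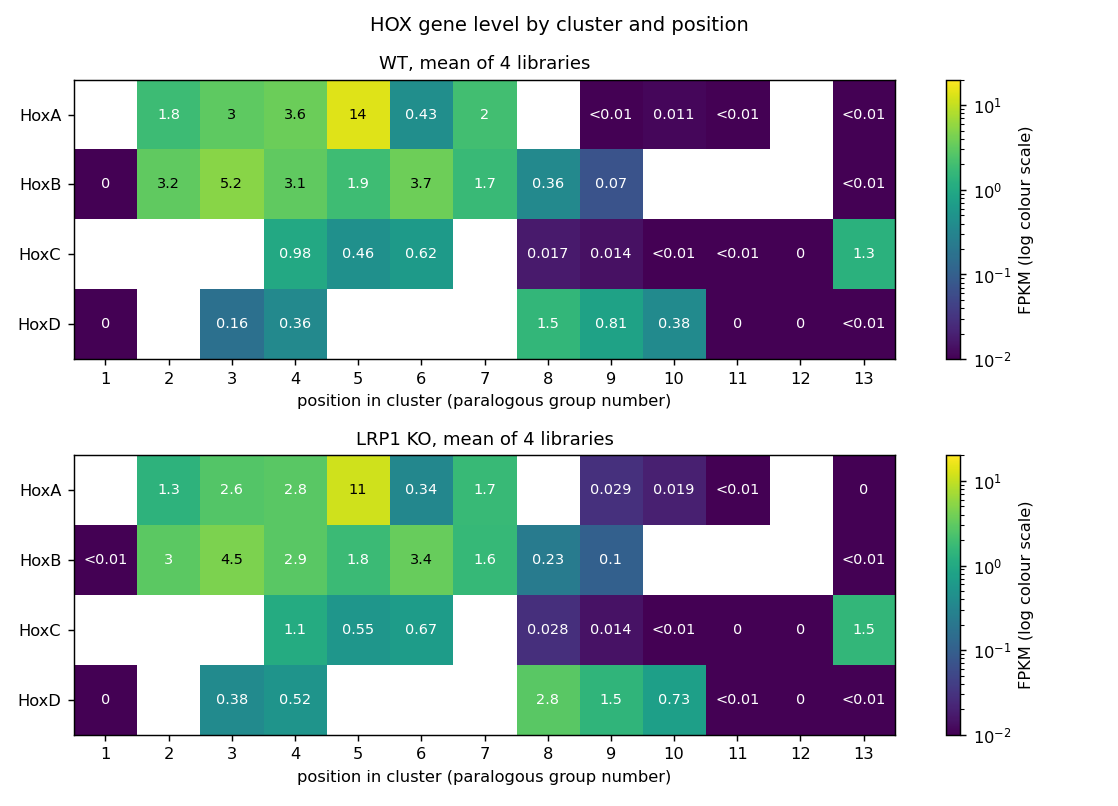
Mean level in FPKM (log colour scale, value printed in each box) of the HOX genes by cluster (rows) and position in the cluster (columns), for the 4 WT libraries above and the 4 LRP1 KO libraries below. White squares have no value shown. From position 2 to 7 HoxA and HoxB are above 1 FPKM apart from Hoxa6, HoxD is highest at position 8, and Hoxc13 stands alone at the high-numbered end.

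In the HoxA cluster (GRCm38, chromosome 6, 52162417 to 52260880 over the genes described, minus strand, 98.5 kb) the level broke off between positions 7 and 9. Hoxa2 to Hoxa5 and Hoxa7 had WT means from 1.83 to 13.7 FPKM, while Hoxa9, Hoxa10, Hoxa11 and Hoxa13 did not pass 0.0828 in any library. Hoxa6, which lies between the higher Hoxa5 and Hoxa7, was an exception inside the expressed stretch at 0.433 ± 0.0240 FPKM in WT and 0.341 ± 0.180 in LRP1 KO. Hoxa5 and Hoxa6 share no annotated exon bases with another gene in GENCODE.

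The HoxB cluster (chromosome 11, 96194316 to 96368256, plus strand, 173.9 kb) was used over nearly the same range. Hoxb2 to Hoxb7 had WT means of 1.75 to 5.20 FPKM, Hoxb8 lay between 0.0668 and 0.457 over the 8 libraries, Hoxb9 between 0.0465 and 0.156, and Hoxb13 did not pass 0.0245. At the other end Hoxb1, a hindbrain gene, was at 0 in the 4 WT libraries and at most 0.0147 in LRP1 KO, whereas its neighbour Hoxb2 was among the 5 highest HOX genes of both groups.

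The HoxC cluster (chromosome 15, 102921103 to 103036852, plus strand, 115.8 kb) was near or under 1 FPKM at its low-numbered end. Hoxc5 ran from 0.432 to 0.695 FPKM over the 8 libraries and Hoxc6 from 0.50 to 0.718. Hoxc8, Hoxc9, Hoxc10 and Hoxc11 did not pass 0.0479 in any library. Hoxc13, a regulator of hair and nail growth at the far 5′ end, was in contrast at 1.97, 1.16, 0.996 and 1.04 FPKM in the WT libraries and 1.83, 1.31, 1.63 and 1.30 in LRP1 KO. It was the only gene of paralogous groups 11 to 13 above 0.1 FPKM in any library.

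The HoxD cluster (chromosome 2, 74668310 to 74765142, plus strand, 96.8 kb) was used in its middle. Hoxd8, Hoxd9 and Hoxd10 descended in that order in the means of both groups, from 1.55 through 0.810 to 0.376 FPKM in WT. Hoxd11 and Hoxd12 were listed at 0 or under 1e-08, and Hoxd13, a digit gene, did not pass 0.0155. Hoxd3 and Hoxd4 lay between 0.0917 and 0.740 FPKM, but 62.3% and 52.3% of their exon bases are shared with other annotated transcripts on the same strand, so their levels are uncertain.

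Added over the clusters, paralogous group 5 was highest at 16.1 ± 1.31 FPKM in WT and 13.8 ± 1.18 in LRP1 KO (SD, n = 4 each). Groups 3 and 4 followed at 8.38 ± 1.36 and 8.05 ± 0.376 in WT, which did not differ beyond their spread. From group 7 on the sums descended from 3.75 ± 0.768 through 1.92 ± 0.570 and 0.897 ± 0.138 to 0.392 ± 0.154 at group 10 and 0.0130 ± 0.0164 at group 11, before Hoxc13 raised group 13 to 1.30 ± 0.459.

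Promoters of 22 of the 39 HOX genes were found in the RefSeq table (24 promoters of 300 bases, from 250 before to 50 after the start, build GRCm38.p6). Hoxa4 was not in it. The 5 printed here bracket these level changes: Hoxa5 as the highest HOX gene, Hoxa7 and Hoxa9 on either side of the break in HoxA, and Hoxd8 and Hoxd9 as the tested HoxD genes. Sequences run 5′ to 3′ on the gene's strand, and capitals mark the letters searched.
Hoxa5, chr6:52204538-52204837, minus strand, AGGTCA (a nuclear receptor site) from base 292: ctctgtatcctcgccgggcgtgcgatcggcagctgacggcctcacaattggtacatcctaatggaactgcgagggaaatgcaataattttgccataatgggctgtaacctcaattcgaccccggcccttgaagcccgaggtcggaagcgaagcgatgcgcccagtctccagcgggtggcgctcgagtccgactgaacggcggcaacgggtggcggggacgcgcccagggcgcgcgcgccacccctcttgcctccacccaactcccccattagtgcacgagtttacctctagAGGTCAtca
Hoxa7, chr6:52218524-52218823, minus strand, TTTATG (the core of a CDX site) from bases 15 and 78: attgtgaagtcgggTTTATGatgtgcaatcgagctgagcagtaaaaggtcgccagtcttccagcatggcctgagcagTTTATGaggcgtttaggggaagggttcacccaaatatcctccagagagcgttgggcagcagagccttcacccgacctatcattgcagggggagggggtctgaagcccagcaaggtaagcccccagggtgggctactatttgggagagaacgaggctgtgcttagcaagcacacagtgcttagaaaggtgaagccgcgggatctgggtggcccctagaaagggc
Hoxa9, chr6:52227321-52227620, minus strand, GGGCGG (a GC box) from base 148: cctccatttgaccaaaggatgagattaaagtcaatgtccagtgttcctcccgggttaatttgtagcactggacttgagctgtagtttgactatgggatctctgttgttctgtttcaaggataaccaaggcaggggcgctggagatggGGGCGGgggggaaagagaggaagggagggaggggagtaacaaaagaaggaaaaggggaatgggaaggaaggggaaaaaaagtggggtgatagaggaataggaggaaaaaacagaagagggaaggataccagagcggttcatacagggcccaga
Hoxd8, chr2:74704365-74704664, plus strand, AGGTCA from base 116: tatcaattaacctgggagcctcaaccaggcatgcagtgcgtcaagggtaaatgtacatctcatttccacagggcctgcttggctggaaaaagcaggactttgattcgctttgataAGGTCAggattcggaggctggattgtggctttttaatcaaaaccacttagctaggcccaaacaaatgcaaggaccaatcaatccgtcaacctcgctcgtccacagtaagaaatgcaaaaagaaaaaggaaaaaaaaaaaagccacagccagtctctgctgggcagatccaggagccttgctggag
Hoxd9, chr2:74697513-74697812, plus strand, GGGCGG from base 264 and its reverse complement from base 25: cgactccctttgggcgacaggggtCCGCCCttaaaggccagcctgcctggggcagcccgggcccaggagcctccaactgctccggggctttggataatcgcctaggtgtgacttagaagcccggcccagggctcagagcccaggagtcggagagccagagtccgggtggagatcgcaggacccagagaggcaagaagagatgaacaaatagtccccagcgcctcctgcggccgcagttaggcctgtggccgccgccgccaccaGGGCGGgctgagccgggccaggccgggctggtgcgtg

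The printed promoters differ in CpG content, with 29 CpG in Hoxa5, 20 in Hoxd9, 9 in Hoxa7, 6 in Hoxd8 and 4 in Hoxa9. The Hoxa7 and Hoxa9 windows lie inside the GENCODE genes, which have 5′ ends at 52221854 and 52231089. Their contents hold for the printed starts only. Over the 24 HOX promoters the median was 14.5 CpG (range 4 to 45), against 7.0 over all 32851 promoters in the table. Letters were searched on both strands: TATAAA, the core promoter box, was held by 16.7% of HOX and 13.6% of all promoters, GGGCGG by 41.7% and 35.7%, TGATNNAT (a PBX-HOX site) by 16.7% and 8.85%, TTTATG by 20.8% and 11.9%, and AGGTCA by 29.2% and 16.3%. CCGGAAG, an ETS site, was in none of the 24 HOX promoters and in 8.86% of all. These are descriptions of letters in a window, and TTTATG differs from the reverse complement of the core promoter box only in its last base.

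The comparison asked whether HOX levels differed between the LRP1 KO and WT libraries, in whichever cells Lrp1 was lost. None of the 16 tested HOX genes passed an adjusted p under 0.05 with limma (0 of 16), where 13.6% of all tested genes did and 1.62% did with a change of at least 2-fold. At an unadjusted p under 0.05 there were 3 of 16 (Hoxa2, Hoxa4 and Hoxa5), against 33.7% of all tested genes. The estimates were lower in LRP1 KO for 12 genes and higher for 4, and they followed the clusters: with all 8 libraries all 6 tested genes of HoxA and all 6 of HoxB were lower (medians -0.21 and -0.08 on the log2(FPKM + 1) scale), and both of HoxC and both of HoxD were higher (medians 0.11 and 0.40). Over all tested genes the median was -0.01, and 5908 of the 11389 estimates were lower.

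**Figure D2:**
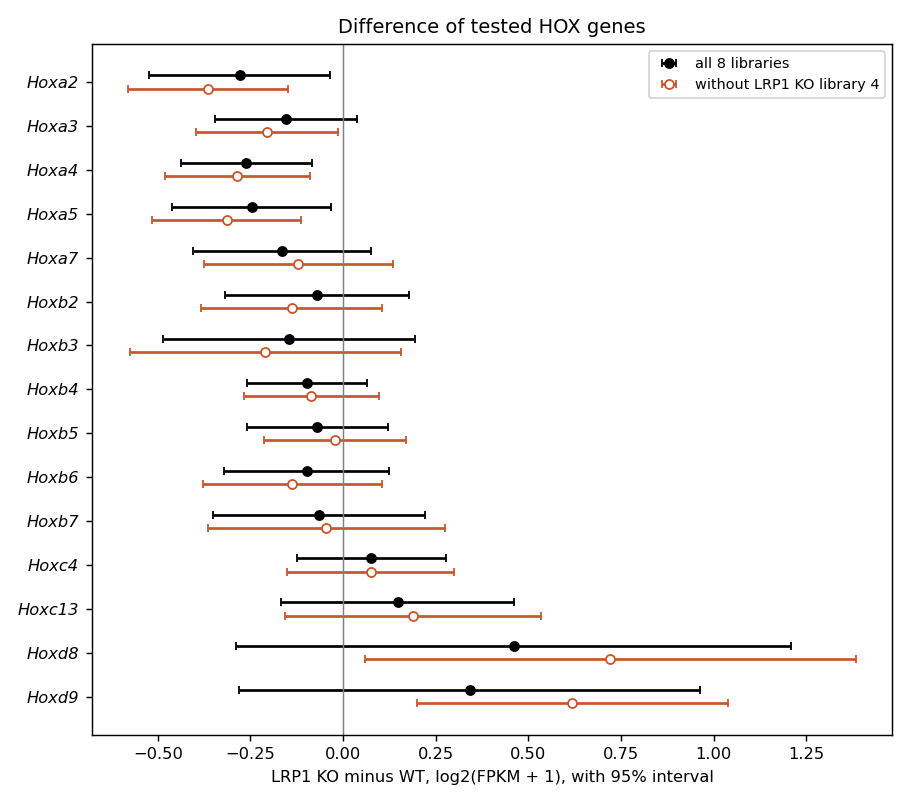
Difference between LRP1 KO and WT on the log2(FPKM + 1) scale (x axis) for 15 tested HOX genes, with the 95% interval, from all 8 libraries (filled black) and without LRP1 KO library 4 (open orange). With all libraries the 11 HoxA and HoxB estimates shown lie left of 0 and the 4 HoxC and HoxD estimates right of it; without LRP1 KO library 4 the intervals of Hoxd8, Hoxd9 and Hoxa3 also leave 0 out.

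Hoxa4, which helps pattern the neck vertebrae, was the tested HOX gene with the smallest p. In WT it measured 3.81, 3.55, 3.61 and 3.36 FPKM over libraries 1 to 4, and in LRP1 KO 2.69, 3.12, 2.49 and 3.02. Every KO value lay below every WT value, which made it the only tested HOX gene whose groups did not overlap (1 of 16, where 19.6% of all tested genes did not overlap). The log2 difference was -0.26 (SE 0.08, 95% interval -0.44 to -0.08, adjusted p = 0.0559). Its unadjusted two-sided exact permutation p of 0.0286 is the smallest that 4 against 4 libraries can give. That value follows from the lack of overlap and adds nothing to it. In GENCODE 16% of its exon bases lie opposite exons of an antisense gene, and the strand setting of the counting is not given in the sources used here, so sense and antisense reads cannot be told apart.

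Hoxa5, needed for the development of the lung and described as a brake on vessel sprouting, was the most abundant HOX gene in both groups and gave 25.7% of the HOX sum in WT and 22.7% in LRP1 KO. In WT it measured 14.4, 14.9, 12.3 and 13.3 FPKM, and in LRP1 KO 10.5, 12.0, 10.1 and 13.2. The groups overlapped through LRP1 KO library 4 alone, which lay above WT library 3. The log2 difference was -0.25 (SE 0.09, adjusted p = 0.105). Hoxa2, a selector of identity in the second pharyngeal arch, showed the same arrangement, with 1.88, 1.83, 1.58 and 2.05 FPKM in WT and 1.19, 1.36, 1.05 and 1.78 in LRP1 KO. Here too library 4 was the one KO library inside the WT range (log2 difference -0.28, SE 0.11, adjusted p = 0.108).

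Without LRP1 KO library 4 these 3 genes passed the threshold: Hoxa2 at -0.36 (SE 0.09, adjusted p = 0.0232), Hoxa4 at -0.29 (SE 0.09, adjusted p = 0.0392) and Hoxa5 at -0.31 (SE 0.09, adjusted p = 0.0306). In that fit 26.5% of all tested genes were called, and 4 of the 16 HOX genes. Library 4 alone made the groups of Hoxa2 and Hoxa5 overlap, so leaving it out separates them in any case. Without LRP1 KO library 1 the limma adjusted p was 0.242 for Hoxa2, 0.148 for Hoxa4 and 0.245 for Hoxa5. It was 0.177, 0.0797 and 0.148 in that order without library 2, and 0.265, 0.156 and 0.256 without library 3. LRP1 KO library 4 is also the KO library with the highest summed level of 13 fibroblast markers, 3445 FPKM against 2211, 2930 and 2684 in LRP1 KO libraries 1, 2 and 3 and 2639 to 3790 in WT, none of these markers being at 0. In the fit of all 8 libraries, where 13.6% of all tested genes were called, 4 of the 12 fibroblast markers tested were called, with Postn higher in LRP1 KO and Pdgfra, Dpt and Thy1 lower. The 9 mesothelial markers, all tested and none at 0, summed to 2442 to 2788 in WT and 2078 to 2370 in LRP1 KO, with 3 lower in the same fit (Msln, Upk3b and Bnc1). The part of these cells in the HoxA levels was not tested.

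Hoxa3 and Hoxa7 overlapped between the groups. Hoxa3, which is needed for the thymus and parathyroid, stood at 2.95, 3.18, 2.68 and 3.27 FPKM in WT and 2.55, 2.57, 2.33 and 3.01 in LRP1 KO (log2 difference -0.15, adjusted p = 0.233). Hoxa7, an axial patterning gene, stood at 2.05, 2.48, 1.67 and 1.83 FPKM in WT and 1.51, 1.87, 1.89 and 1.43 in LRP1 KO (log2 difference -0.17, adjusted p = 0.303). Antisense exons face 25.4% of the exon bases of Hoxa3 and 20.4% of Hoxa7, and 15% of Hoxa2 and 8.01% of Hoxa3 are shared with a transcript on the same strand.

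**Figure D3:**
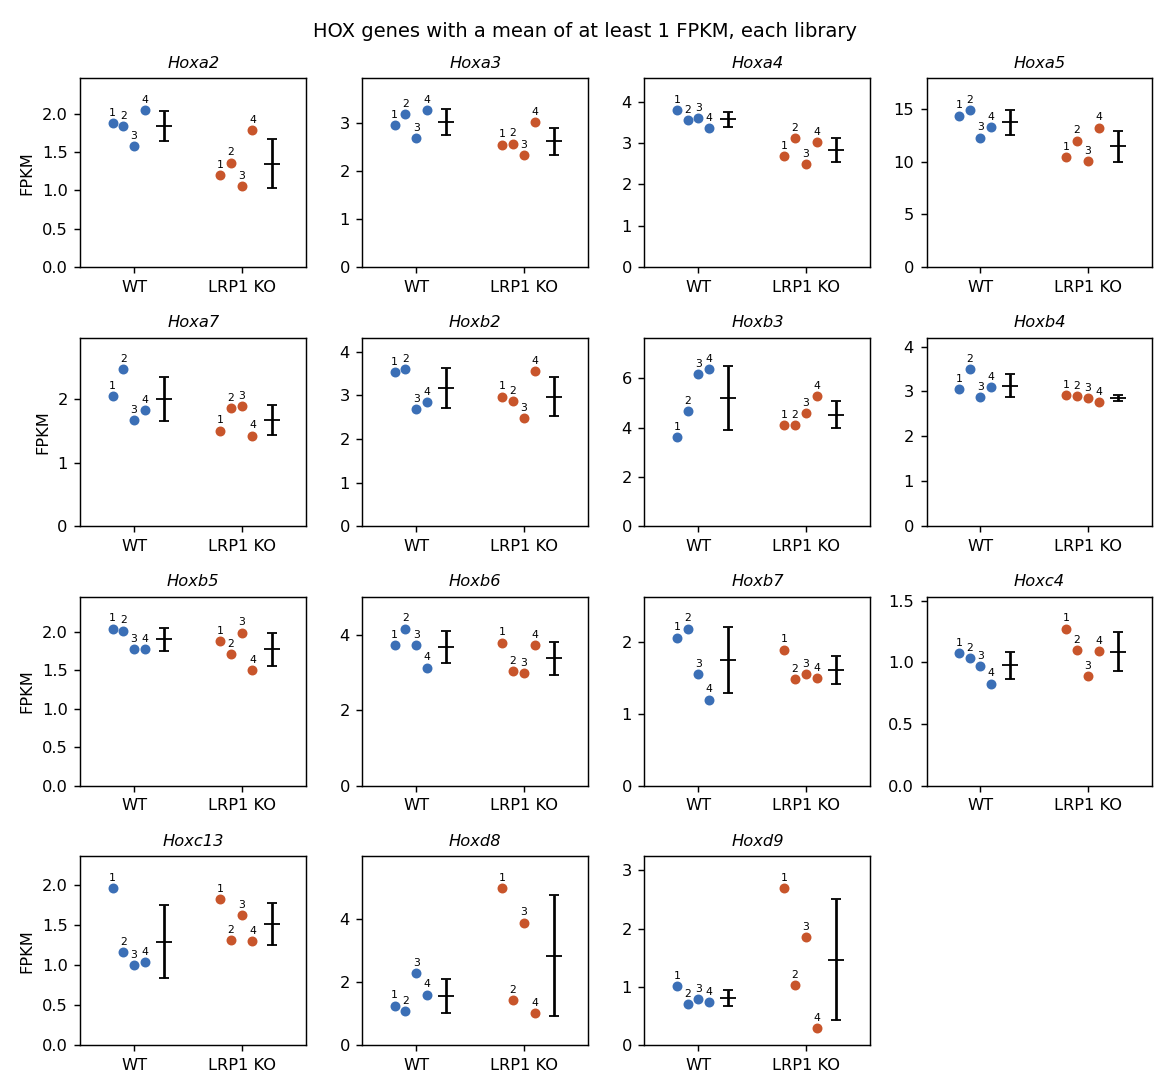
FPKM (y axis, from 0) of 15 HOX genes with a mean of at least 1 in either group, 1 panel a gene, with each library as a numbered point (WT blue, LRP1 KO orange) and the group mean with its SD as a black bar. The groups are separate in the Hoxa4 panel alone, and relative to the mean the KO libraries are spread widest in the Hoxd8 and Hoxd9 panels, where libraries 1 and 3 lie above 2 and 4.

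The HoxB genes lay close to each other between the groups, and none of the 6 tested had an adjusted p below 0.367. Hoxb3, a hindbrain and neck patterning gene also tied to angiogenesis, was the second HOX gene by level in both groups, at 3.60, 4.65, 6.17 and 6.37 FPKM in WT and 4.11, 4.11, 4.59 and 5.28 in LRP1 KO. All 4 KO values lay within the WT range (log2 difference -0.15, SE 0.15, adjusted p = 0.528), and the difference ran from -0.28 without WT library 1 (adjusted p = 0.158) to -0.05 without WT library 4. Antisense exons of Hoxb3os face 52.9% of its exon bases, and 27.3% of those of Hoxb2. Hoxb4, best known for the expansion of blood stem cells, was the steadiest member in LRP1 KO at 2.92, 2.90, 2.85 and 2.77 FPKM, against 3.05, 3.5, 2.88 and 3.10 in WT (log2 difference -0.10, 95% interval -0.26 to 0.06, adjusted p = 0.367). Its interval reaches to 1.2-fold on the log2(FPKM + 1) scale.

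Hoxb2 and Hoxb6, with roles in the hindbrain and the trunk mesoderm, covered almost the same range in both groups. Hoxb2 stood at 3.53, 3.60, 2.69 and 2.84 FPKM in WT and 2.97, 2.87, 2.47 and 3.55 in LRP1 KO. Hoxb6 stood at 3.73, 4.18, 3.74 and 3.14 in WT and 3.80, 3.04, 2.98 and 3.74 in LRP1 KO. Neither gene separated the groups. Hoxb5, which takes part in lung branching and in the formation of endothelial precursors, stood at 2.04, 2.02, 1.78 and 1.77 FPKM in WT and 1.88, 1.71, 1.99 and 1.51 in LRP1 KO. Hoxb7, an axial patterning gene, stood at 2.06, 2.19, 1.56 and 1.2 FPKM in WT and 1.89, 1.48, 1.55 and 1.49 in LRP1 KO, all inside the WT range. The log2 differences of these 4 genes ran from -0.10 to -0.07 with adjusted p from 0.518 to 0.750, and that of Hoxb7 was 0.01 without WT library 2.

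In the HoxC cluster both tested genes were higher in LRP1 KO by less than their spread. Hoxc4, the lowest-numbered gene of its cluster, stood at 1.08, 1.03, 0.969 and 0.828 FPKM in WT and 1.27, 1.10, 0.886 and 1.09 in LRP1 KO (log2 difference 0.08, SE 0.09, adjusted p = 0.578). Hoxc13, with the values given above, differed by 0.15 (SE 0.14, adjusted p = 0.485), and its highest value was in WT library 1. The difference was 0.28 without that library (adjusted p = 0.121) and 0.09 without WT library 3.

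Among the HOX genes of at least 1 FPKM, Hoxd8 and Hoxd9 varied most between the KO libraries relative to their means. Hoxd8, active in trunk and limb mesoderm, stood at 1.25, 1.08, 2.27 and 1.6 FPKM in WT and 4.97, 1.43, 3.87 and 1.01 in LRP1 KO libraries 1 to 4. Hoxd9, its 5′ neighbour with roles in the limb, stood at 1.01, 0.705, 0.791 and 0.734 FPKM in WT and 2.7, 1.02, 1.85 and 0.285 in LRP1 KO. Libraries 1 and 3 were therefore above every WT library for both genes, and library 4 was below every WT library.

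The coefficient of variation over the KO libraries was 67.8% for Hoxd8 and 71.2% for Hoxd9, whereas for the 6 HoxA and 6 HoxB genes of at least 1 FPKM it ran from 10.2% to 23.5% and from 2.35% to 15.0%. Accordingly the log2 differences of 0.46 for Hoxd8 (SE 0.33, 95% interval -0.29 to 1.21, adjusted p = 0.355) and 0.34 for Hoxd9 (SE 0.28, 95% interval -0.28 to 0.96, adjusted p = 0.411) had the widest intervals of the 16, and changes of up to 2.31-fold and 1.95-fold on this scale lie inside them. Without LRP1 KO library 4 Hoxd9 was called higher (0.62, SE 0.18, adjusted p = 0.0385), and Hoxd8 was not (0.72, SE 0.29, adjusted p = 0.10). LRP1 KO libraries 1 and 3 moved the estimates the opposite way, to 0.20 for Hoxd8 and 0.11 for Hoxd9 without library 1 (adjusted p = 0.707 and 0.799) and to 0.29 and 0.24 without library 3 (adjusted p = 0.635 and 0.662). Without library 2 they were 0.63 and 0.40 (adjusted p = 0.263 and 0.416). Hoxd9 entered the test with exactly 4 libraries at 1 FPKM or more, of which 3 were LRP1 KO.

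Of the untested neighbours Hoxd10 and Hoxd3 showed the same library order, the level of Hoxd3 being uncertain as said above. Hoxd10, a posterior gene also described as a brake on endothelial sprouting, stood at 0.410, 0.207, 0.547 and 0.339 FPKM in WT and 1.36, 0.352, 1.05 and 0.145 in LRP1 KO. Hoxd3, known from cultured endothelial cells for inducing integrins, stood at 0.0985, 0.226, 0.178 and 0.155 in WT and 0.615, 0.264, 0.531 and 0.0917 in LRP1 KO. In both, as in Hoxd8 and Hoxd9, the KO libraries ran 1, 3, 2 and 4 from the highest to the lowest. Hoxd4 did not follow this order, with 0.543, 0.623, 0.740 and 0.163 FPKM in LRP1 KO and 0.199 to 0.502 in WT, although library 4 was again the lowest.

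Endothelial markers had that order as well. Cdh5 stood at 8.98, 9.31, 11.2 and 8.87 FPKM in WT and 47.3, 21.5, 33.9 and 8.56 in LRP1 KO, and Pecam1 at 7.96, 8.05, 8.76 and 6.80 in WT and 36.3, 18.4, 26.2 and 6.72 in LRP1 KO. The order 1, 3, 2, 4 was taken from the HoxD values, so its count there (4 of the 5 genes with an overall mean of at least 0.1 FPKM) only restates them. It was found in 16 of the 20 endothelial markers, in 3 of the 4 HoxC genes of that level, in none of the 7 HoxA (0) or 7 HoxB genes (0), and in 8.46% of all tested genes. The markers too were named after their values were seen, so their count is a description and not a test. Of the 17 endothelial markers tested 1 passed the threshold, Eng, which was higher in LRP1 KO (log2 difference 0.94, adjusted p = 0.0279), or 5.88% against 13.6% of all tested genes. At an unadjusted p under 0.05 there were 12 of 17, against 33.7% of all, and the median of the list was 0.90. The part of endothelial cells in the HoxD levels was not tested.

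**Figure D4:**
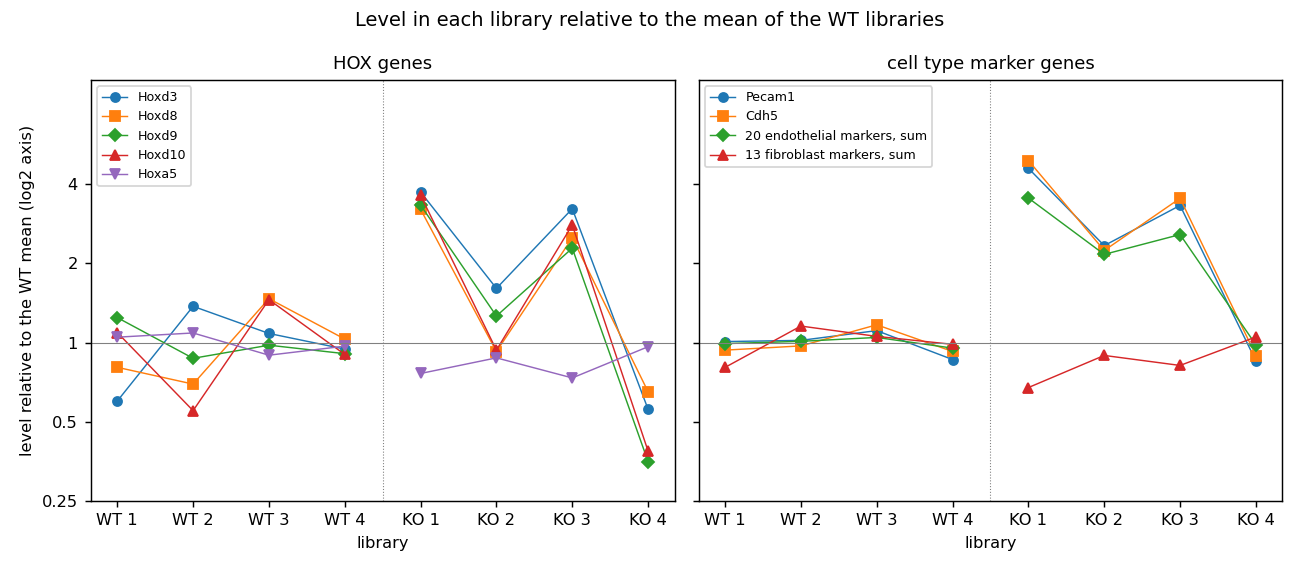
Level in each library divided by the mean of the 4 WT libraries (y axis, log2 scale), for 4 HoxD genes and Hoxa5 on the left and for Pecam1, Cdh5, the summed endothelial markers and the summed fibroblast markers on the right. Hoxd3, Hoxd8, Hoxd9 and Hoxd10 reach 3.21 to 3.74 times the WT mean in LRP1 KO library 1 and 0.352 to 0.650 in library 4, while Pecam1 and Cdh5 reach 4.60 and 4.93 in library 1 and 0.851 and 0.892 in library 4. In library 2 these HoxD genes lie at 0.924 to 1.61, and Pecam1 and Cdh5 at 2.34 and 2.24.

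Markers of other cell types also differed between the groups, and their counts stand against 13.6% of all tested genes called and 33.7% at an unadjusted p under 0.05. Macrophage markers summed to 90.5 to 116 FPKM in WT and 242 to 587 in LRP1 KO, with 9 of 11 tested higher and 3 of the 16 at 0 in some library, and mural cell markers to 670 to 836 and 1040 to 1627, with 4 of 8 tested higher and none at 0. The 4 were the contractile genes Acta2, Tagln, Cnn1 and Des, and Acta2 and Tagln made up most of the sums, while the pericyte gene Pdgfrb stood at 71.6 ± 11.4 in WT and 58.0 ± 12.3 in LRP1 KO and Rgs5 at 0.720 ± 0.241 and 0.669 ± 0.422. The mural sums of LRP1 KO libraries 1 to 4 were 1627, 1372, 1548 and 1040, again in the order 1, 3, 2, 4, whereas the macrophage sums were 395, 587, 242 and 540. Among markers of the organs, lymphocyte genes summed to at most 0.735 with 5 of 10 listed at 0, among them Cd3e, Cd3g, Cd8a and Nkg7, lung epithelial genes to at most 8.57 with Scgb3a2 at 0 and 1 of 2 tested lower (Scgb1a1), and cardiomyocyte genes to 90.7 to 156 with none of 3 tested called by limma (0 of 3, and 2 at an unadjusted p under 0.05). Nearly all of that last sum was Tnnt2, at 124 ± 23.2 in WT and 96.1 ± 11.3 in LRP1 KO, while Myh6 came to 0.297 and 1.02 and Ttn did not pass 0.0177. The hepatocyte list summed to 828 to 975 in WT and 335 to 609 in LRP1 KO, almost all of it Trf (lower, with Ahsg higher), while Cyp3a11 was at 0 and Alb did not pass 0.108. What part these cells have in the HOX levels was not tested.

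The sums by cluster show how these patterns add up. HoxA summed to 29.4, 29.3, 24.9 and 26.7 FPKM in WT and to 21.6, 23.9, 20.7 and 26.1 in LRP1 KO libraries 1 to 4, so that 3 KO libraries were below every WT library. HoxB summed to 19.3 ± 0.929 in WT and 17.5 ± 1.09 in LRP1 KO, and HoxC to 3.39 ± 0.566 and 3.87 ± 0.477. HoxD summed to 2.98, 2.67, 4.06 and 3.33 in WT and to 10.2, 3.69, 8.05 and 1.69 in LRP1 KO, the widest range inside 1 group of the 4 clusters. The total over the 39 genes was 50.3 ± 2.91 in LRP1 KO, and the share of HoxD in it was 11.7%.

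**Figure D5:**
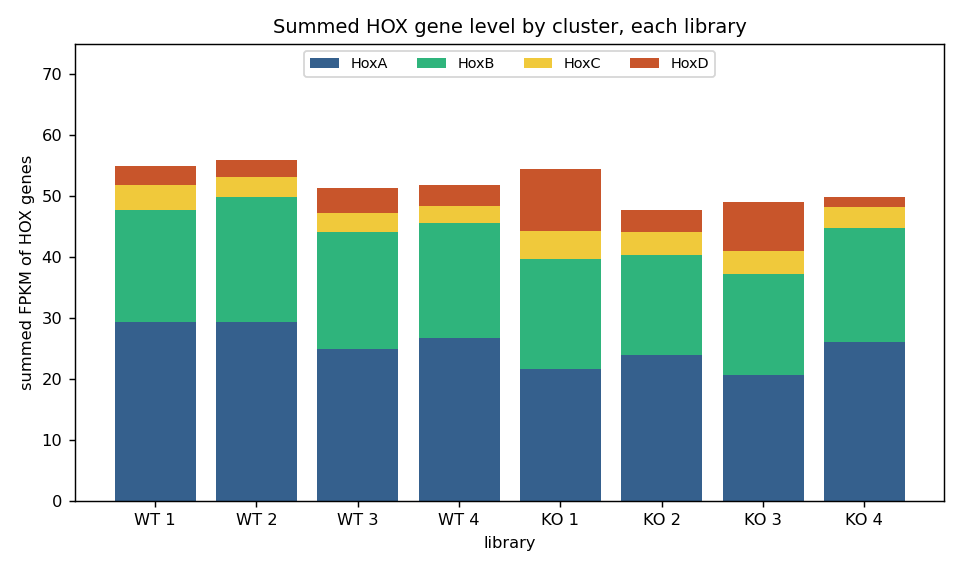
Summed FPKM of the HOX genes of each cluster (stacked bars from 0) in each of the 4 WT and 4 LRP1 KO libraries. HoxA and HoxB make up most of every bar, and the HoxD part is 10.2 and 8.05 in LRP1 KO libraries 1 and 3 against 1.69 in library 4.

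Of the 23 HOX genes below the test's filter, 12 were above 0 in at least 4 libraries. The groups of none of these 12 were separate (0 of 12), where 13.9% of the 4825 genes of that kind in the table were. Hoxb8 came to 0.357 ± 0.0735 FPKM in WT and 0.235 ± 0.123 in LRP1 KO, and Hoxc5 to 0.455 ± 0.0173 and 0.547 ± 0.105 (SD, n = 4 each).

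HOX proteins bind DNA together with cofactors of the TALE class, PBX, MEIS and PKNOX, and all 9 listed cofactor genes were expressed and tested. None was called with limma (0 of 9, and 2 at an unadjusted p under 0.05), where 13.6% and 33.7% of all tested genes were, and their median was -0.11. Pbx2 stood at 16.4 ± 1.05 FPKM in WT and 12.9 ± 1.96 in LRP1 KO (log2 difference -0.34, adjusted p = 0.0575). Meis2 stood at 23.3 ± 2.38 and 22.6 ± 0.823, Meis1 at 14.4 ± 2.39 and 12.9 ± 2.81, and Meis3 at 11.8 ± 1.38 and 10.9 ± 1.29. By their WT means Pbx2, Meis1 and Meis2 were above Hoxa5 per length, and Meis3 above every other HOX gene. Pbx3, Pbx4, Pknox1 and Pknox2 had WT means of 6.00, 4.25, 5.18 and 1.46 FPKM.

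Among 20 genes of retinoic acid supply and response and the CDX factors, 12 were tested, 2 were higher, 1 was lower and the median was -0.09, where 13.6% of all tested genes were called. Aldh1a1, an enzyme that makes retinoic acid, fell from 767 ± 45.4 to 572 ± 27.1 FPKM (log2 difference -0.42, adjusted p = 0.00515). Crabp2, which carries retinoic acid to its nuclear receptors, rose from 3.70 ± 0.947 to 7.24 ± 1.58 (0.81, adjusted p = 0.0172), and the receptor gene Rarb from 2.07 ± 0.444 to 2.96 ± 0.213 (0.38, adjusted p = 0.0478). Cdx1, Cdx2 and Cdx4 were listed at 0 in all libraries.

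Of the 19 Polycomb genes, all tested, 3 were lower and none was higher (0), with a median of -0.15, a share of 15.8% near the 13.6% of all tested genes. They were Rbbp7, a histone-binding subunit (197 ± 13.4 to 147 ± 12.5 FPKM, log2 difference -0.42, adjusted p = 0.00971), Cbx6, a reader of the Polycomb mark (35.5 ± 2.7 to 23.4 ± 4.56, -0.60, adjusted p = 0.0152), and Jarid2, a partner of the methyltransferase (2.46 ± 0.152 to 1.86 ± 0.182, -0.27, adjusted p = 0.0485). None of the 14 Trithorax and H3K27 demethylase genes was called with limma (0 of 14, and 2 at an unadjusted p under 0.05, against 33.7% of all tested genes), and their median was -0.12. Of 14 tested genes flanking the clusters Snx11 beside HoxB was higher (0.31, adjusted p = 0.0283) and Calcoco1 beside HoxC lower (-0.40, adjusted p = 0.0345), with a median of 0.00. These 2 are 14.3% of the 14, again near the 13.6% of all tested genes. The calls of Aldh1a1 and Rbbp7 held in all 14 alternatives of the fit, while those of Jarid2, Rarb, Calcoco1 and Snx11 were lost in 11, 9, 8 and 7 of them, Cbx6 in 2 (without WT library 2 or LRP1 KO library 2) and Crabp2 in 1 (without WT library 2). None of the 12 non-coding transcripts looked for, Hotair among them, was found among the listed genes, so they have no values here.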

How the data were processed

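The deposited table holds FPKM for 22520 genes in 8 mRNA-seq libraries (4 WT, 4 LRP1 KO). The submitters' processing notes name TopHat2, Cufflinks and the mm10 build, with no versions. The authors appear to have quantile-normalised these values, since every library has the same highest value (7793) and sums between 503571 and 504112. The unit was read from the values and those tools, and the study's methods describe a count pipeline that this table does not hold. Depth is unknown, so counting error could not be given, and the number of libraries limits the precision.

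Groups and replicate numbers came from the labels. LRP1 KO was compared with WT on log2(FPKM + 1) with limma 3.58.1 (R 4.3.3; trend) for the 11389 genes with at least 1 FPKM in at least 4 libraries, with Benjamini-Hochberg adjustment over all of them; calls are at an adjusted p under 0.05. Fold changes on this scale understate the change of low genes. The script was tested on simulated data. Single values were compared by an exact two-sided permutation test (smallest p 0.0286). Every HOX gene is accounted for, those with a mean of at least 1 FPKM in either group with every library (a few genes counted in totals are not reported here singly), TALE genes with such a mean by name, and from the other pathway lists at most 3 called genes. The members and lists were chosen with earlier results of these data known. Cdh5, Pecam1 and the other marker genes were named after their values were seen. Gene positions and exons are from GENCODE for GRCm38 (38 genes by Ensembl ID, Hoxd4 by symbol). Alternatives were another pseudocount, filter and scaling, no trend, a replicate block and leaving out each library.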

Additional observations from a re-analysis of the deposited data

Results flagged for a closer look

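Of 32 groups of 4 libraries examined (15 HOX genes with a mean of at least 1 FPKM, and Lrp1, in WT and in LRP1 KO), 1 held a library far from the other three: Hoxb7 in LRP1 KO library 1 was 1.89 FPKM, with the others between 1.48 and 1.55. Its gap to the nearest library was 0.836 of the whole range, just over Dixon's critical value for 4 libraries, and chance alone sets off about 1 in 20 groups. The value lies inside the WT range of Hoxb7.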

How the results depend on the processing

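The count of 0 called HOX genes held with the 0.1 pseudocount, both other filters, the rescaling and the replicate block. It became 1 (Hoxa4) without the trend and ran from 0 to 4 when 1 library was left out, with the 4 arising without LRP1 KO library 4. The count of HOX genes whose groups did not overlap ran from 1 to 5 in the same leave-one-out runs, in which 21.3% to 37.8% of all tested genes did not overlap (5 and 37.8% without LRP1 KO library 4). Over all genes the 1547 calls became 512 to 3021 with 1 library left out. With the replicate number as a block there were 1013 calls, 493 higher and 520 lower. Same-numbered WT and LRP1 KO libraries had correlated deviations of 0.158, 0.141, 0.340 and -0.312, so the numbers were not taken to pair them, and not every library went best with its own number. Over 15 HOX genes and 14 alternatives, 204 of 210 results kept their direction and side of the threshold, 5 newly passed it and 1 reversed: Hoxb7, from -0.17 to 0.01 with 1 library left out, was 0.011 without WT library 2. The cause of these shifts was not tested. Lrp1 stayed called in every alternative. Rescaling the libraries by the median ratio moved no cluster sum by more than 1 SD. Limits are the unknown depth, 4 libraries a group, the organ behind each library, and reads that antisense or overlapping transcripts could share.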

Other observations

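2 features of the HOX pattern stand outside the comparison and were singled out after their values were seen. Hoxc13 was between 0.996 and 1.97 FPKM in all 8 libraries, while Hoxc8 to Hoxc12, which separate it from Hoxc6 on chromosome 15, did not pass 0.0479. Hoxa6 was between 0.171 and 0.580 FPKM, although its neighbours Hoxa5 and Hoxa7 had lowest values of 10.1 and 1.43 FPKM. The other 3 rows inside the clusters were low: Gm14396 in HoxD was listed at 0 in every library, Gm53 in HoxB was at 0.0601, 0, 0 and 0.0727 FPKM in WT and 0.307, 0.225, 0.123 and 0.0427 in LRP1 KO, and 5730596B20Rik in HoxA was at 0.127 to 0.184 in WT and 0.0759 to 0.145 in LRP1 KO.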
